A study of Mus musculus with 8 samples.

Results

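Nf1 and 8 other genes that set the activity of Ras were followed in microglia, the macrophages that live in brain and optic nerve, isolated by flow sorting from mouse optic nerve. The members, chosen by gene symbol and not by any measured value, were the Ras GTPase-activating protein genes Nf1, Rasa1, Rasa2 and Rasa3, the Nf1 partner Spred1, the GTPase Nras, the exchange factors Sos1 and Sos2, and the phosphatase Ptpn11. They are 9 of the 37000 genes with a value in every library, and all 9 were among the 17753 genes tested. FFC mice carried Nf1 flox/flox alleles together with GFAP-Cre, in which the promoter of the astrocyte gene Gfap, active in neural progenitors too, drives Cre recombinase. FF mice carried the same Nf1 flox/flox alleles without Cre. All were C57BL/6 mice of 3 months, with 4 libraries per genotype, of which replicates 1 and 4 were female and 2 and 3 male. Nf1 is therefore deletable in every animal, and deleted in the astrocytes of FFC mice and not in the sorted microglia, so the Nf1 values below check no label. The libraries are labelled biological replicates, and the sources used here do not say whether each came from 1 mouse or from a pool.

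Ras proteins are switches at the inner face of the cell membrane that signal while they hold GTP. Exchange factors such as Sos1 and Sos2 load them with GTP, and GTPase-activating proteins, or Ras GAPs, make them cleave it and fall silent. Neurofibromin, the product of Nf1, is a Ras GAP whose loss causes neurofibromatosis type 1, in which children can develop gliomas of the optic pathway, and mice that lose Nf1 in cells of the Gfap lineage are used to study them. Microglia take part in such tumours. The comparison asks what microglia express when the astrocytes around them lack Nf1, and whether the FFC mice had tumours is not given here.

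Values are FPKM, fragments scaled to transcript length and to the mapped fragments of the library, so that levels of genes of different length can be set side by side. Differences are FFC minus FF in mean log2(FPKM + 1), which understates the change of genes near 1 FPKM. Counts of genes with a higher or lower mean use this scale too, and the mean FPKM of a gene can point the other way. Only FPKM were deposited, which leaves the sequencing depth unknown. The libraries resembled each other loosely, with median Spearman correlations to the other libraries between 0.398 (FF 2) and 0.597 (FFC 3), and FF 2 and FF 4 were lowest. The 12 microglia markers summed to between 3161 and 5712 FPKM in FFC and between 1727 and 5019 FPKM in FF, and none of the 12 was at 0 in any library. The 11 astrocyte markers summed to between 91.8 and 189 FPKM in FFC and between 117 and 337 FPKM in FF, with 7 of them, Gfap and Aqp4 included, listed at 0 in at least 1 library. Sums of 6 endothelial markers lay between 4.59 and 18.8 FPKM in FFC and between 20.2 and 45.1 FPKM in FF, and those of 6 neuron markers between 0.870 and 1.85 FPKM in FFC and between 2.76 and 5.34 FPKM in FF, both without overlap. Erythroid marker sums reached 23.8 to 51.0 FPKM in FFC and 50.1 to 207 FPKM in FF, and neutrophil marker sums 2.83 to 823 FPKM in FFC and 193 to 2454 FPKM in FF. Sums of T and NK cell markers were 10.5 to 40.9 FPKM in FFC and 4.37 to 378 FPKM in FF, and those of oligodendrocyte precursors 0.116 to 3.94 FPKM in FFC and 1.40 to 36.9 FPKM in FF. All 4 of these sums had their highest value in an FF library, and their ranges overlapped. The part of other cells in the values below was not tested, and in bulk RNA fewer cells of a type and less RNA per cell cannot be told apart.

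Sos1 and Sos2 are the most alike pair of the 9 genes in sequence. Across all 36 pairs of members, the longest identical run of their coding sequences was 32 bases, in Sos1 and Sos2, and no other pair shared more than 14. The 60 bases around that run, 5′ to 3′ on the coding strand from the GENCODE M21 transcripts (GRCm38), are shown because reads that fall inside the run cannot be assigned to one of these genes by sequence alone. Capitals mark the shared run, which covers coding bases 1588 to 1619 of Sos1 (chromosome 17) and 1585 to 1616 of Sos2 (chromosome 12), counted from the A of the start codon.
Sos1: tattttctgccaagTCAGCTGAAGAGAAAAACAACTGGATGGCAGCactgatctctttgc
Sos2: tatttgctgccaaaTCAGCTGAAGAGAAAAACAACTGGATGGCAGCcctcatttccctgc
Of all 31-base stretches in the longest-coding transcript, 2 of 8406 in Sos1 and 5 of 4482 in Sos2 also occurred in a transcript of any other annotated gene. Such stretches numbered 0 in Nf1, Rasa1, Rasa3 and Ptpn11, 16 of 5783 in Rasa2 and 17 of 5986 in Spred1. Nras had the most, 116 of 4440 (2.61%).

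None of the 9 Ras regulators differed between FFC and FF microglia beyond the spread between libraries. The limma test called 0 of the 9 (smallest adjusted p = 0.759, Sos2) and 0.0% of the 17753 genes tested. At an unadjusted p under 0.05 it held 0 members, against 6.46% of all genes. Every member overlapped between the genotypes, where 4.34% of all genes did not (3.05% higher and 1.29% lower in FFC). On the log2(FPKM + 1) scale the mean was higher in FFC for 7 members and lower for Rasa3 and Nras. In mean FPKM, Spred1 (4.79 in FFC and 5.08 in FF) and Ptpn11 (5.71 and 8.04) were lower in FFC, and Nras (11.4 and 10.0) was higher. The median log2 difference was 0.53 over the 9, beside 0.19 over all genes tested, of which 56.7% had a higher mean in FFC. The median of the members was 0.268 without FF 1, beside 0.265 over all genes tested, and 0.29 without FFC 4, beside 0.12. All 9 intervals at 95% confidence included 0, and all 9 also included a log2 difference of 1, a doubling on this scale, so a change of that size in FFC cannot be told from none with these libraries.

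**Figure D1:**
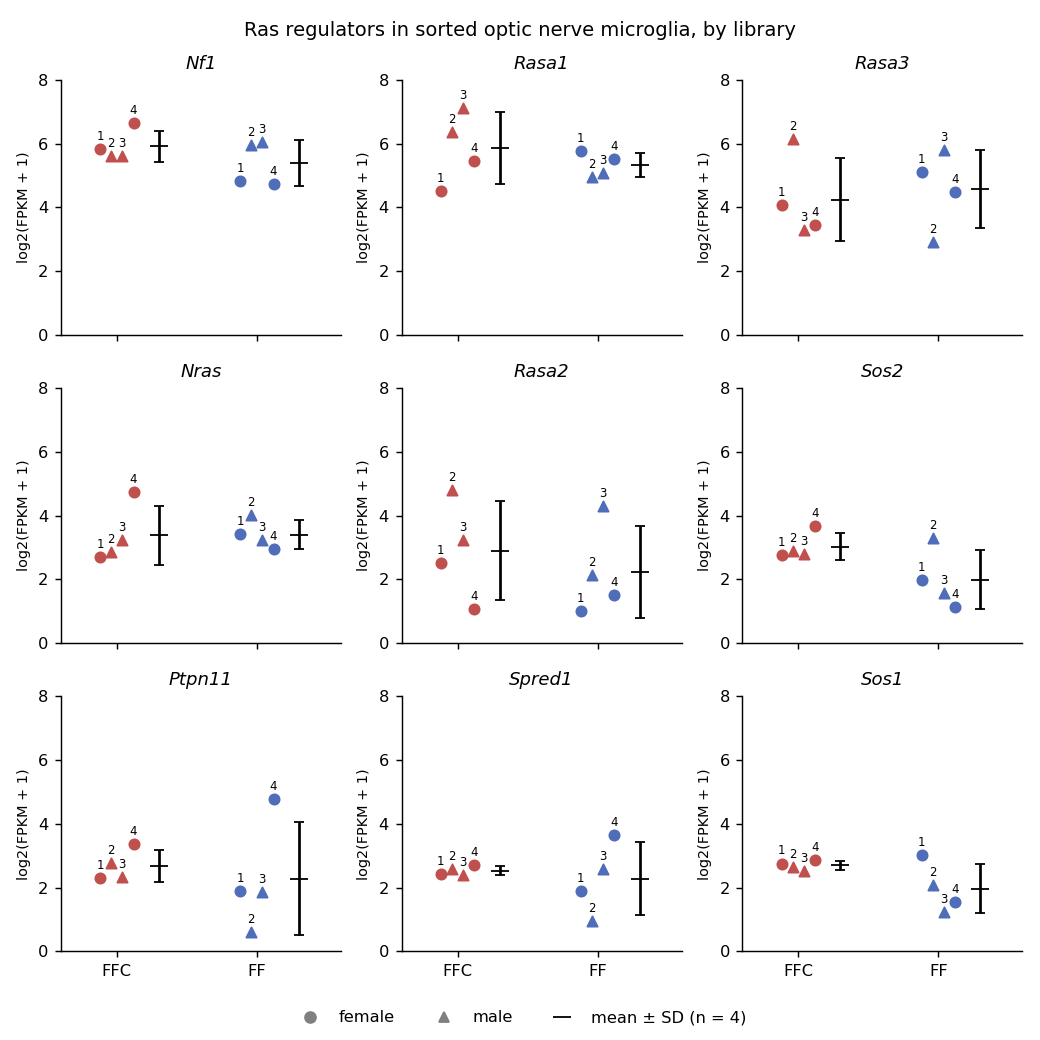
Level of each Ras regulator, in log2(FPKM + 1) on the vertical axis, in the 4 FFC libraries (red, left) and the 4 FF libraries (blue, right) of each panel, with the replicate number above each point, circles for females, triangles for males and the mean ± SD beside them. Panels run from the highest mean (Nf1) to the lowest (Sos1), and the genotypes overlap in all 9.

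Among the Ras GAPs, Nf1 (ENSMUSG00000020716, chromosome 11, 79153195 to 79395114 in mm9, plus strand) was expressed in every library. It had 56.2, 47.8, 47.7 and 98.3 FPKM in FFC 1 to FFC 4, against 27.4, 60.8, 65.2 and 25.5 FPKM in FF 1 to FF 4. FFC 4 was the highest library, and all 4 FFC values lay above the female FF libraries FF 1 and FF 4, while the male FF libraries FF 2 and FF 3 lay inside the FFC range. On the log2(FPKM + 1) scale the level was 5.92 ± 0.49 in FFC and 5.39 ± 0.71 in FF (SD, n = 4 each, as in all such values below). The difference was 0.53 (95% interval -0.77 to 1.83; limma adjusted p = 0.802; exact two-sided permutation p = 0.286 over 70 arrangements, of which the smallest possible is 0.0286). In these unscaled values the interval leaves out a fall by a log2 of 1 in FFC, as do those of Rasa1, Sos1 and Sos2. The difference was 0.29 without FFC 4, 0.31 without FF 4 and 0.35 without FF 1, and 0.30 after upper-quartile scaling, which brought the median of all genes to 0.03.

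Rasa1 encodes p120 RasGAP, which docks on activated receptors through SH2 domains (ENSMUSG00000021549, chromosome 13, 85354304 to 85429091, minus strand). Its FPKM was 21.6, 81.8, 137.5 and 42.4 in FFC 1 to FFC 4, and 52.9, 30.2, 32.8 and 45.1 in FF 1 to FF 4. The FFC libraries held both the highest value, in FFC 3, and the lowest, in FFC 1, and the 4 FF values sat between them. The level was 5.86 ± 1.13 in FFC and 5.33 ± 0.37 in FF, a difference of 0.53 (95% interval -0.91 to 1.96; limma adjusted p = 0.827). It was 0.11 without FFC 3, 0.98 without FFC 1 and 0.0091 with the month in the sample titles as a covariate. The end of Rasa1 overlaps exons of Ccnh, the cyclin H gene, on the opposite strand, and no source used here says whether reads were counted by strand, so their split there is uncertain. Ccnh had 14.3 to 43.2 FPKM in FFC and 18.0 to 45.1 FPKM in FF.

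Rasa2 and Rasa3 belong to the GAP1 family, Ras GAPs that attach to membrane phospholipids, and both varied widely between libraries of the same genotype. Rasa2 (ENSMUSG00000032413, chromosome 9, 96439719 to 96532036, minus strand) had 4.68, 26.7, 8.32 and 1.09 FPKM in FFC, and 1.00, 3.42, 18.5 and 1.86 FPKM in FF. One male library of each genotype, FFC 2 and FF 3, stood highest, and FFC 4 and FF 1, both female, were lowest. Its range of 26.6-fold over the 8 libraries was the second widest of the 9. Rasa3 (ENSMUSG00000031453, chromosome 8, 13566950 to 13677603, minus strand) had 15.8, 69.0, 8.84 and 9.96 FPKM in FFC, and 33.8, 6.50, 54.7 and 21.2 FPKM in FF. FFC 2 and FF 3 were again the highest library of their genotype, and 3 of the 4 FFC values lay below 3 of the 4 FF values. The differences were 0.66 for Rasa2 (95% interval -1.50 to 2.81; limma adjusted p = 0.860) and -0.34 for Rasa3 (95% interval -2.16 to 1.49; limma adjusted p = 0.922). Single libraries moved both values. Rasa2 differed by 0.026 without FFC 2, 0.25 without FF 1, 0.42 without FF 4, 1.27 without FFC 4 and 1.34 without FF 3. Rasa3 differed by -0.97 without FFC 2 and -0.89 without FF 2, and by -0.16 without FF 1, -0.076 without FFC 4, -0.024 without FFC 3 and 0.071 without FF 3.

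Spred1 (ENSMUSG00000027351, chromosome 2, 116947110 to 117008015, plus strand) encodes a protein that binds neurofibromin and brings it to the membrane. Its FPKM was 4.41, 4.95, 4.26 and 5.53 in FFC, and 2.73, 0.930, 5.02 and 11.7 in FF. The 4 FFC libraries lay close together, and the FF libraries reached both below and above them. The level was 2.53 ± 0.14 in FFC and 2.27 ± 1.14 in FF, a difference of 0.25 (95% interval -1.49 to 2.00; limma adjusted p = 0.943). Without FF 2, the library with the lowest value, the difference was -0.19, and it was 0.13 without FF 1 and 0.72 without FF 4.

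Nras (ENSMUSG00000027852, chromosome 3, 102862152 to 102871837, plus strand) is the 1 Ras GTPase among the members. It had 5.55, 6.31, 8.32 and 25.6 FPKM in FFC, and 9.65, 15.2, 8.36 and 6.79 FPKM in FF. FFC 4 alone exceeded every FF library, and the other 3 FFC values lay below 3 of the 4 FF values. The means were nearly equal, at 3.38 ± 0.92 in FFC and 3.40 ± 0.45 in FF. The difference of -0.02 had a 95% interval of -1.61 to 1.57 (limma adjusted p = 0.994), and its sign changed with the library left out.

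The exchange factor genes Sos1 and Sos2 had all 4 FFC libraries above the FF median, as did Nf1, Spred1 and Ptpn11. The share of all genes with this pattern is not given here. Sos1 (ENSMUSG00000024241, chromosome 17, 80793092 to 80879793, minus strand) had 5.74, 5.22, 4.79 and 6.26 FPKM in FFC, and 7.05, 3.21, 1.36 and 1.92 FPKM in FF. FF 1 was the highest of all 8, and the other 3 FF libraries lay below every FFC library. Sos2 (ENSMUSG00000034801, chromosome 12, 70684748 to 70782839, minus strand) had 5.81, 6.34, 5.93 and 11.7 FPKM in FFC, and 2.90, 8.81, 2.00 and 1.18 FPKM in FF. Again 3 FF libraries lay below every FFC library, and here FF 2 was the exception. The difference was 0.73 for Sos1 (95% interval -0.92 to 2.37; limma adjusted p = 0.786; exact two-sided permutation p = 0.143), and 0.49 without FF 3. For Sos2 it was 1.04, the largest of the 9 (95% interval -0.66 to 2.73; limma adjusted p = 0.759; exact two-sided permutation p = 0.114).

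Ptpn11 (ENSMUSG00000043733, chromosome 5, 121580542 to 121641406, minus strand) encodes SHP2, a phosphatase with SH2 domains that promotes Ras activation below growth factor receptors. Its FPKM was 3.89, 5.75, 3.99 and 9.21 in FFC, and 2.69, 0.514, 2.63 and 26.3 in FF. FF 4 was the highest library and FF 2 the lowest, a range of 51.1-fold that was the widest of the 9. The difference was 0.40 (95% interval -1.62 to 2.42; limma adjusted p = 0.915), and -0.16 without FF 2, 0.18 without FFC 4 and 1.23 without FF 4. Spred1 had its highest and lowest values in the same 2 libraries.

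**Figure D2:**
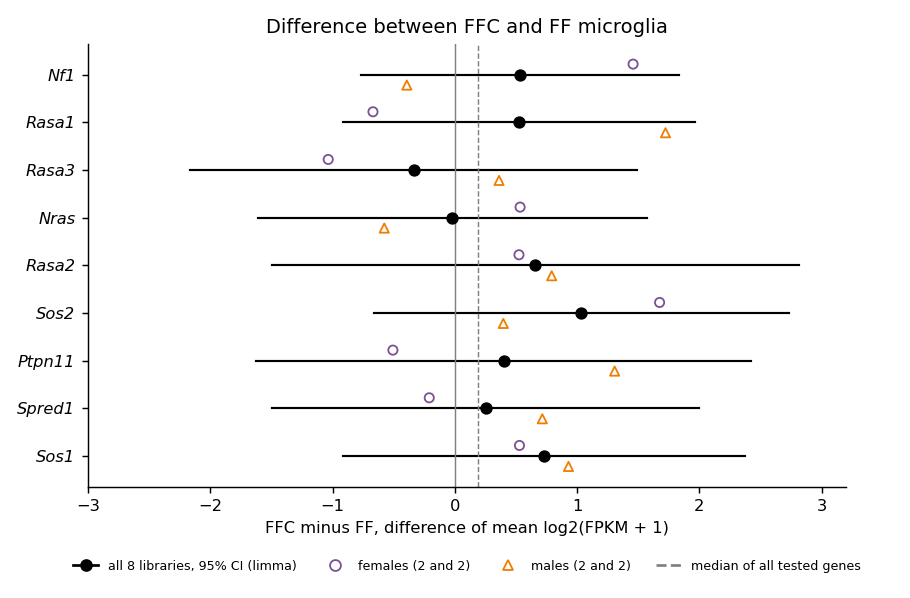
Difference between FFC and FF in mean log2(FPKM + 1) for each Ras regulator (horizontal axis), as black points with 95% intervals from limma over 8 libraries, open purple circles for females alone and open orange triangles for males alone (2 libraries per genotype and sex). Every interval crosses the solid line at 0, and the dashed line marks the median of all tested genes, 0.19.

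The levels of the members fell in a broad order, with Nf1 and Rasa1 at the top. Means over the 8 libraries on the log2(FPKM + 1) scale were 5.65 for Nf1, 5.59 for Rasa1, 4.41 for Rasa3, 3.39 for Nras, 2.57 for Rasa2, 2.51 for Sos2, 2.48 for Ptpn11, 2.40 for Spred1 and 2.33 for Sos1. Nf1 lay above 94.0% of the genes tested and Sos1 above 55.5%. Neighbours in this order did not differ beyond the spread of their within-library differences across the 8 libraries, in an exact two-sided sign-flip test. Of 8 neighbour pairs, 0 passed after adjustment over the 8 (smallest adjusted p = 0.375). Unadjusted, 1 had a p under 0.05 (Rasa1 above Rasa3 in 7 of 8 libraries, exact p = 0.0469). Farther apart the order was steadier. Nf1 exceeded Nras, Rasa2, Sos2, Spred1 and Sos1 in 8 of 8 libraries each, by 2.26 to 3.32 on average, and Ptpn11 in 7 of 8. Which of Nf1 and Rasa1 stood first varied: each was the higher in 4 of the 8 libraries.

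Within a genotype the members varied by an SD of 0.56 (Sos1) to 1.50 (Rasa2) on the log2(FPKM + 1) scale, with a median of 0.81, beside a median of 1.23 for all genes tested. The SD was smaller in FFC than in FF for 5 of the 9 members, as it was for 64.5% of the genes tested. FFC 4 was the highest library for 3 members (Nf1, Nras and Sos2), and FF 2 the lowest for 3 (Rasa3, Spred1 and Ptpn11). No library was highest for more than 3 or lowest for more than 3.

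Split by sex, FFC minus FF had opposite signs in females and males for Nf1, Rasa1, Rasa3, Spred1, Nras and Ptpn11. It was positive in both sexes for Rasa2, Sos1 and Sos2. Rasa3 differed by -1.04 in females and 0.36 in males, and Spred1 by -0.21 and 0.72. Nras differed by 0.53 in females and -0.58 in males, and Ptpn11 by -0.51 and 1.31. Only Nf1 and Rasa1 had opposite signs without overlap between the genotypes in either sex. In females, Nf1 had 56.2 and 98.3 FPKM in FFC, against 27.4 and 25.5 FPKM in FF, a difference of 1.46. In males it had 47.8 and 47.7 FPKM in FFC, against 60.8 and 65.2 FPKM in FF, a difference of -0.39. Rasa1 differed by -0.67 in females and by 1.72 in males, again without overlap in either sex. These 2 of 9 members stand beside 3.35% of all genes tested that separated in both sexes in opposite directions. The test of the difference itself, the interaction of genotype and sex, passed for 0 of the 9 members (limma adjusted p = 0.9995 for each) and 0.0% of all genes. The interaction was 1.85 for Nf1 (95% interval -0.82 to 4.52) and -2.39 for Rasa1 (95% interval -5.14 to 0.36), and at an unadjusted p under 0.05 it held 0 members against 3.19% of all genes. Between females and males, with genotype as a covariate, limma called 0 members and 0.0% of all genes. At an unadjusted p under 0.05 it held Rasa2 alone of the 9, against 3.99% of all genes. Rasa2 averaged 1.52 in females and 3.61 in males on the log2(FPKM + 1) scale, a difference of -2.09 (95% interval -3.95 to -0.23; limma adjusted p = 0.953), and the sexes overlapped, as they did for every member, while 2.43% of all genes did not.

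The sample titles carry a month, November for FFC 1 and FF 1 to FF 3 and December for FFC 2 to FFC 4 and FF 4, and what it dates is not given. The within-month differences had 1 library on one side each, so they are values with no test. For Nf1 they were 0.23 in November and 1.22 in December. Nf1, Rasa2, Rasa3, Sos1 and Sos2 (5 of 9) kept one sign in both months. Rasa1 and Nras were lower in FFC in November (-0.76 and -0.84) and higher in December (0.78 and 0.65). For Spred1 and Ptpn11 the November differences were 0.62 and 0.84, and the December ones -1.10 and -1.96.

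The Nf1 locus holds 6 other genes of the table, all on the opposite strand and, in GENCODE M21, outside Nf1 exons. Evi2a and Evi2b, which encode membrane proteins of blood cells, were expressed in every library. Evi2a had 175, 117, 138 and 222 FPKM in FFC 1 to FFC 4, against 136, 33.5, 119 and 98.6 FPKM in FF 1 to FF 4. Evi2b had 28.3, 38.6, 31.1 and 28.3 FPKM in FFC, against 22.0, 7.52, 64.4 and 10.0 FPKM in FF. Both overlapped between the genotypes and neither passed (limma adjusted p = 0.759 and 0.773, differences 0.88 and 0.74). Omg, which encodes a myelin glycoprotein of oligodendrocytes, had 1.13 to 15.2 FPKM in FFC and 0.482 to 30.3 FPKM in FF. FF 2 was the lowest library for Evi2a, Evi2b and Omg, whereas Nf1 had 60.8 FPKM there, above 5 of the other 7 libraries.

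**Figure D3:**
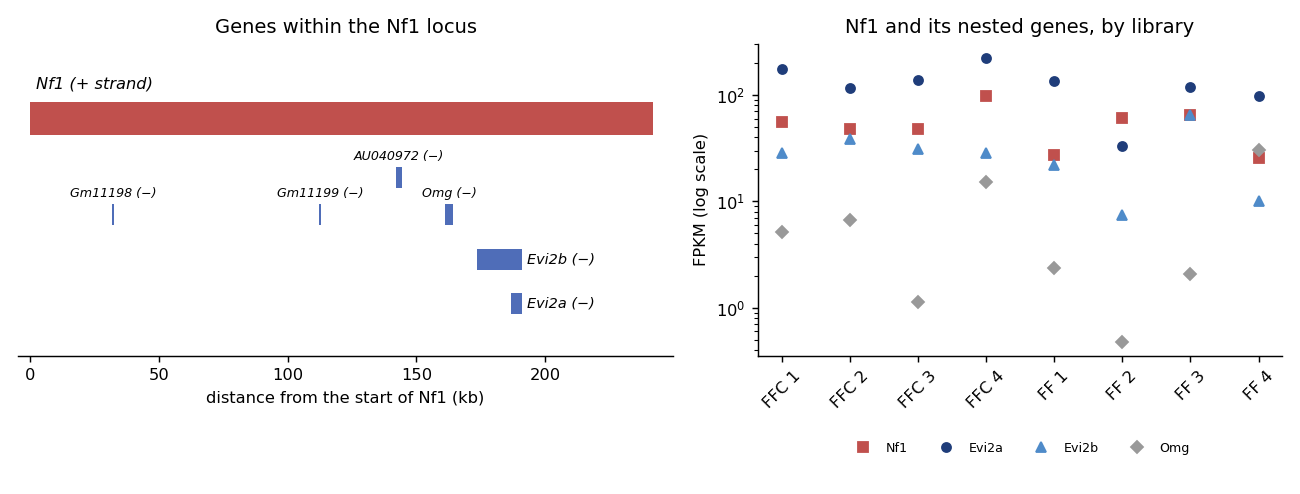
Left, the Nf1 locus drawn to scale by distance in kb from the start of Nf1, with the genes nested in it on the opposite strand. Right, FPKM on a log scale (vertical axis) of Nf1, Evi2a, Evi2b and Omg in each FFC and FF library; Evi2a lies above Nf1 in 7 libraries and below it in FF 2.

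The genes whose profile over the 8 libraries was most like that of Nf1 were ranked by the root-mean-square distance between centred log2(FPKM + 1) values, among 8115 named genes averaging 5 FPKM or more. The 5 nearest were Scarb2 (distance 0.279), a lysosomal membrane protein gene, Sipa1 (0.280), a GTPase-activating protein gene for Rap, Atp5j (0.280), an ATP synthase subunit gene, Itsn2 (0.282), an endocytic scaffold gene, and Ncor1 (0.290), a transcriptional corepressor gene. Scarb2 had 18.0, 21.6, 22.4 and 55.9 FPKM in FFC, against 17.1, 33.1, 39.3 and 12.3 FPKM in FF. Being chosen for its likeness to Nf1, it shared FFC 4, FF 3 and FF 2 as its highest libraries. In FFC 1 it lay below FFC 2 and FFC 3, where Nf1 lay above both. The median distance of the genes considered was 1.26, and a gene with equal values in all libraries would lie at 0.590. Of the other members, Nras (0.560) and Sos2 (0.569) were closest to Nf1, hardly nearer than such a flat profile, and Ptpn11 (1.43) was farthest.

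The rest of the Ras pathway was read from 5 lists of 39 genes, of which 35 passed the filter on low values. Limma called 0 of the 35 in either direction (smallest adjusted p = 0.712), beside the 0.0% of all genes. At an unadjusted p under 0.05 it held 7 of the 35, against 6.46% of all genes, but 1 of the 35 without FFC 2 or without FF 2 and FF 4, 2 without any 1 of FFC 3, FFC 4, FF 2 or FF 4, and 3 with the month as a covariate. Between FFC and FF 25 had a higher and 10 a lower mean, with a median difference of 0.64, beside 0.19 over all genes tested. The pathway median was 0.34 without FF 2 (all genes 0.16) and 0.09 without FF 2 and FF 4 (all genes 0.07).

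Of the 6 other Ras GTPase genes, all 6 had a higher mean log2(FPKM + 1) in FFC, beside 56.7% of all genes tested. Their median difference was 1.53, and with 1 library left out it lay between 1.15 (without FF 4) and 2.31 (without FF 1). Without FFC 1, or without FF 2 and FF 4, 5 of the 6 had a higher mean (median 0.97 in the second case). In mean FPKM, Rit1 was lower in FFC (19.3 against 20.3 in FF). Rras, a relative of Ras linked to integrin adhesion, had 254, 28.6, 38.5 and 57.7 FPKM in FFC, against 60.2, 12.7, 11.3 and 2.66 FPKM in FF (difference 2.21, limma adjusted p = 0.729). Mras, named after its values were seen, had 10.6, 49.2, 9.86 and 9.25 FPKM in FFC, against 3.99, 1.12, 7.30 and 0.139 FPKM in FF (difference 2.34, limma adjusted p = 0.712). The FFC values of Mras lay above all FF values, by a narrow margin over FF 3.

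Of the 5 tested genes among the other Ras GAPs and Spred proteins, 2 had a higher and 3 a lower mean in FFC (median -0.44; -0.01 without FFC 1, 0.01 without FFC 2, 0.34 without FF 1, -0.03 without FF 2 and -0.79 without FF 4). Rasal3, a Ras GAP of blood cells, had 85.5, 94.0, 124 and 150 FPKM in FFC, against 37.0, 24.5, 93.0 and 33.0 FPKM in FF (difference 1.41, limma adjusted p = 0.729). FF 3 reached the FFC range, and the other 3 FF libraries lay well below it. Rasa4 had 60.1 ± 39.7 FPKM in FFC and 50.4 ± 37.9 FPKM in FF (difference 0.47, limma adjusted p = 0.871). Rasal1, named after its values were seen, was the 1 pathway gene under an unadjusted p of 0.05 with a lower mean in FFC. It had 0, 0.0535, 0.143 and 0 FPKM in FFC, against 8.99, 4.26, 0.0242 and 2.59 FPKM in FF (difference -1.83, limma adjusted p = 0.755), and FF 3 lay within the FFC values.

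Among 5 tested exchange factor genes 2 had a higher and 3 a lower mean in FFC (median -0.12; -0.23 without FFC 2, 0.22 without FFC 3, 0.04 without FFC 4, 0.31 without FF 1, 0.10 without FF 2, -0.05 without FF 3 and -0.36 without FF 4). Rasgrp3, an exchange factor that responds to diacylglycerol, was the most abundant, at 67.2 ± 20.7 FPKM in FFC and 57.5 ± 33.7 FPKM in FF (difference 0.35, limma adjusted p = 0.882). Rasgrf2 had 29.4 ± 22.3 FPKM in FFC and 13.2 ± 16.4 FPKM in FF (difference 1.90, limma adjusted p = 0.759). Of the 10 adaptor and docking protein genes, 6 had a higher and 4 a lower mean in FFC (median 0.87; 0.51 without FF 2 and 0.03 without FF 2 and FF 4). There the ubiquitin ligase gene Cbl had 30.0 ± 7.95 FPKM in FFC and 18.2 ± 13.8 FPKM in FF, and the adaptor gene Shc1 had 27.9 ± 15.4 FPKM in FFC and 19.3 ± 29.1 FPKM in FF (limma adjusted p = 0.759 for each).

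The Raf, MEK and ERK cascade carries the signal of Ras to the nucleus. All 9 of its kinase and scaffold genes had a higher mean log2(FPKM + 1) in FFC, beside 56.7% of all genes tested. The median difference was 0.51, and 0.21 without FF 2. Without FF 2 and FF 4, 5 of the 9 had a higher mean. In mean FPKM, Braf (25.8 in FFC and 26.4 in FF), Ksr1 (5.05 and 6.50) and Map2k2 (26.2 and 38.4) were lower in FFC. Mapk3, which encodes ERK1, had 86.7, 107, 93.0 and 80.2 FPKM in FFC, against 15.2, 28.5, 100 and 13.2 FPKM in FF (difference 1.68, limma adjusted p = 0.729). The FFC libraries lay close together, and FF 3 lay among them while the other 3 FF libraries were far below. Araf had 72.7 ± 20.9 FPKM in FFC and 72.2 ± 34.5 FPKM in FF (difference 0.09, limma adjusted p = 0.973).

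**Figure D4:**
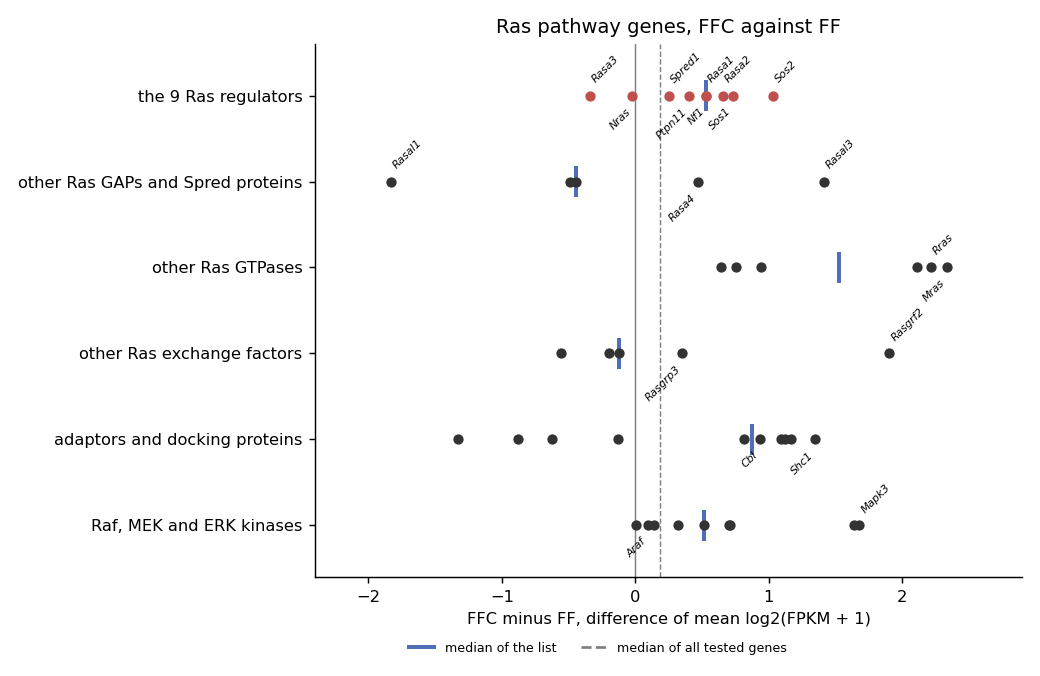
Difference between FFC and FF in mean log2(FPKM + 1) (horizontal axis) for the 9 Ras regulators (red) and for the tested genes of 5 Ras pathway lists (black), 1 point per gene and labels for the genes described here, with a blue bar at each list's median and a dashed line at the median of all tested genes. The other Ras GTPases and the kinases lie at or above 0, and no gene shown passed the test.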

How the data were processed

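RNA of sorted microglia was measured in 8 libraries. The authors deposited FPKM values per gene and library. Tools in the submitters' processing notes are Cufflinks 2.0.2, Bowtie2 2.0.0, TopHat2 2.0.4 and CASAVA 1.8.2, listed without roles, with build mm9; the sources used here give neither annotation nor settings. Per the labels' protocols, cDNA came from the Ovation RNA-Seq method. Of 37447 genes, 447 with a missing value were left out. Starts in the table count from 0 (21397 gene lengths match GENCODE M21 that way, 419 otherwise) and are printed from 1.

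Genes averaging 1 FPKM or more were tested as log2(FPKM + 1) with limma 3.58.1 in R 4.3.3 (empirical Bayes with trend, two-sided, Benjamini-Hochberg over all 17753 genes, threshold 0.05). On simulated data the test called most changes by a log2 of 6, and at a log2 of 4 it missed as many as it called. It missed nearly all changes by a log2 of 1 or 2. Each member's difference of mean log2(FPKM + 1) between genotypes was also tested by exact permutation of the libraries. Neighbouring levels were tested by exact sign flips of their within-library differences. P-values measure the spread between these libraries, which may be partly technical. Same-numbered libraries of the genotypes did not deviate together (correlations -0.05 to 0.03), so no pairing was used.

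The members, lists, tests and alternatives were chosen with earlier results of these data known. Besides the members, genes were named by rule: the 2 most abundant of each pathway list, the 5 most like Nf1, Csf1r and Gfap, except that results for some genes are not reported here. Mras, Rasal1, the genes that overlap Nf1 or Rasa1, and Aqp4 were named outside this rule. Csf1r had 607 to 1062 FPKM in FFC and 379 to 1017 FPKM in FF. Gfap had 0.0778 to 0.310 FPKM in FFC and 0 to 1.03 FPKM in FF. Marker sums not given with the results were 11.6 to 50.9 FPKM in FFC and 13.0 to 42.4 FPKM in FF for oligodendrocytes, 5.37 to 17.3 FPKM in FFC and 8.13 to 86.9 FPKM in FF for mural cells and fibroblasts, and 25.3 to 80.7 FPKM in FFC and 6.56 to 83.4 FPKM in FF for B cells. Other steps used pandas 2.3.3, scipy 1.17.1, numpy 2.4.6 and, for figures, matplotlib 3.10.9 under Python 3.11.15.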

Additional observations from a re-analysis of the deposited data

Results flagged for a closer look

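Among the 4 FFC libraries, Sos2 in FFC 4 stood far from the others, at 11.7 FPKM against 5.81 to 6.34 FPKM in FFC 1 to FFC 3, with a gap of 0.88 of the whole range in log2(FPKM + 1). Chance flags about 1 in 20 such groups, and 52 groups were examined here.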

How the results depend on the processing

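Of 169 differences recomputed for the members, 158 kept their sign, 11 reversed and none passed in limma. Nras turned to 0.014 with a pseudocount of 5 and to 0.063 without FF 2 and FF 4. With the month as a covariate, Spred1 turned to -0.24 and Ptpn11 to -0.56. Leaving out 1 library at a time gave -0.47 to 0.20 for Nras, -0.97 to 0.071 for Rasa3, -0.19 to 0.72 for Spred1, -0.16 to 1.23 for Ptpn11, 0.29 to 0.75 for Nf1, 0.11 to 0.98 for Rasa1, 0.026 to 1.34 for Rasa2, 0.49 to 1.08 for Sos1 and 0.75 to 1.47 for Sos2. The causes were not tested.

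Genes called between FFC and FF, 0 with all libraries, numbered 0 to 2 with 1 library left out (1 each without FFC 4, FF 1 or FF 3 and 2 without FF 4) and 4 without FF 2 and FF 4. Between sexes they numbered 0 to 4 (4 without FF 2, 3 without FF 4) and 5 without FF 2 and FF 4. For the interaction they numbered 0 to 1 (1 without FFC 4 or FF 1), and 6 with no filter on low values. With libraries left out, none of the genes called was a member or pathway gene. With the replicate number as a block, 0 genes and 0 members were called between FFC and FF; 1014 genes and 4 of the 35 pathway genes had an unadjusted p under 0.05. Between sexes the block could not be fitted, since each number holds 1 sex. Of the 4 FFC libraries, FFC 2 alone correlated best with the FF library of its own number.

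Upper-quartile scaling lowered the median difference of all genes to 0.03, against 0.19 unscaled, and every member's difference with it: to 0.30 for Nf1 and Rasa1, 0.50 for Rasa2, 0.07 for Spred1, 0.22 for Ptpn11, 0.55 for Sos1, 0.84 for Sos2, -0.24 for Nras and -0.54 for Rasa3, with no sign changed. Spred1 and Sos1 were not tested under a filter of 5 FPKM. The order of levels changed among the lower members in several settings, and Rasa1 stood above Nf1 without FFC 1, FFC 4, FF 2 or FF 3. The widths of the intervals, with 4 libraries per genotype and unknown depth, limit what can be seen.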
